A study of Homo sapiens with 2 samples.

Results

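PROM1, SOX2, POU5F1, NANOG, CD44, CD24, KIT, KLF4, MYC and BMI1 are genes commonly used as markers of stem cells and of pluripotency. All gene probes named for these 10 genes on the arrays were taken, also those near background, which gave 15 probes on 33 spots, and 10 of 27267 genes on the array. The cells were RMG1, an established line of ovarian clear cell adenocarcinoma, grown in medium with 10% fetal bovine serum and sorted with the ALDEFLUOR assay, which stains live cells by the activity of aldehyde dehydrogenase (ALDH). RNA of ALDEFLUOR positive (ALDH+) cells was hybridized together with RNA of ALDEFLUOR negative (ALDH-) cells on 2 two-color arrays in opposite dye orders. In the Cy5 array the ALDH+ RNA carried Cy5, and in the Cy3 array it carried Cy3, and array values are given in this order. The labels give no further treatment of either population, and both came from the same line. Each population gave 1 RNA extract, so no test could be run, and the SD between the arrays is technical. The methods give AMOC2, a serous line, as the source of the RNA, while the labels give RMG1, the name used here.

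Pluripotent cells are held in that state by a small network of transcription factors, in which POU5F1 (also called OCT4), SOX2 and NANOG bind DNA together and keep up their own transcription, and KLF4 and MYC join POU5F1 and SOX2 in the classic cocktail for reprogramming somatic cells. PROM1 (CD133), CD44, CD24 and KIT (CD117) are cell surface proteins by which stem-like cells are sorted from many tumors, ovarian carcinoma included. BMI1 is a Polycomb protein that keeps stem cells dividing by silencing the CDKN2A locus.

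A ratio here is the signal of ALDH+ cells over that of ALDH- cells on the same array, after background correction and loess normalization, on the log2 scale, on which 1 is 2-fold. A probe was counted as measured when it was well above background on both arrays in at least one population, and a gene was represented by its brightest measured probe. Of the 10 markers, 8 were measured, against 50.3% of all genes on the array (13720 genes). NANOG and KIT were not. Of the 8, PROM1 was more than 2-fold higher in ALDH+ cells, and 0 were more than 2-fold lower. Among all genes measured, 0.211% were more than 2-fold higher and 0.707% more than 2-fold lower, which makes 0.918% in either direction. SOX2 was higher by less than 2-fold and POU5F1 was lower by less than 2-fold, each in the same direction on both arrays, as was the small negative ratio of CD44. CD24, KLF4, MYC and BMI1 had opposite signs on the arrays. Across all genes, 69.7% had the same sign on both arrays. The median ratio of the 8 markers was 0.02 on the log2 scale, and it was -0.12 on the Cy5 array and 0.076 on the Cy3 array. The median of all genes was -0.0023, and their central 95% ran from -0.73 to 0.48. In bulk RNA, fewer cells that express a gene and less RNA of it per cell cannot be told apart.

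The probes behind these ratios are 60 bases long, and their places were read from the array's own annotation on hg19. They are shown for the 3 markers whose ratios stood farthest from 0, for KLF4, whose arrays disagreed most, and for NANOG and KIT, which were not measured. Sequences are 5′ to 3′, and where 30 bases are shown they are the first 30 of the probe.
PROM1 (chr4:15982046-15982105, minus strand): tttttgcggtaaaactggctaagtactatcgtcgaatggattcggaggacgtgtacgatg
SOX2 (chr3:181431877-181431936, plus strand, first 30 bases): tggccatgcaggttgacaccgttggtaatt
POU5F1, brighter probe (chr6:31132178-31132237, minus strand, first 30 bases): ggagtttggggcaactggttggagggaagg
POU5F1, dimmer probe (chr6:31133025-31133368, minus strand): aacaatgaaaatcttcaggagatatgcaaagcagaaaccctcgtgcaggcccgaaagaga
KLF4 (chr9:110248049-110248108, minus strand): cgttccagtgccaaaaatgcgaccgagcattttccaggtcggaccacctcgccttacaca
NANOG (chr12:7948487-7948546, plus strand, first 30 bases): ggttgtgctaatctttgtagaaagaggtct
KIT, probe spotted 10 times (chr4:55606511-55606570, plus strand, first 30 bases): aaagtggttgttagttatagatgtctaggt

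The dimmer POU5F1 probe covers 344 bases of the genome with its 60 bases, so it crosses an exon junction, and the second BMI1 probe does so too, over 409 bases. The GC content of the 15 probes ran from 35% to 55%, with KLF4 at the upper end. Some markers have copies of near-identical sequence elsewhere in the genome (POU5F1, NANOG and CD24), and RNA of such a copy could add to these signals. The CD24 probe is placed by the array on chromosome Y (21152667 to 21152726), where such a copy lies, although CD24 itself is on chromosome 6. The cells are an ovarian carcinoma line, in which a copy on chromosome Y should be absent. Copies on other chromosomes were not searched, so the signals of POU5F1, NANOG and CD24 are uncertain in this respect. Whether each probe lies in the coding part or in an untranslated region was not analysed here, because no transcript models of hg19 were used.

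PROM1, the surface glycoprotein prominin-1, had the highest ratio of the 10 markers. Its signal was 827 in ALDH+ cells against 206 in ALDH- cells in Cy5, and 478 against 255 in Cy3. ALDH+ cells were brighter with either dye, and all 4 of its channels were called well above background. The log2 ratio was 1.37 on the Cy5 array and 1.58 on the Cy3 array, a mean of 1.48 ± 0.149 (SD, 2 arrays), or 2.78-fold. PROM1 was 6th from the highest among the 13720 genes measured. Its ratio rests on 1 probe with 1 spot on each array. The Cy3 signal in ALDH- cells was 1.89 times the median of the negative control spots. The closest family member, PROM2, which was named after its values were seen, lay in the other direction, at a mean of -0.86 on the log2 scale (-1.13 on the Cy5 array and -0.58 on the Cy3 array).

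**Figure D1:**
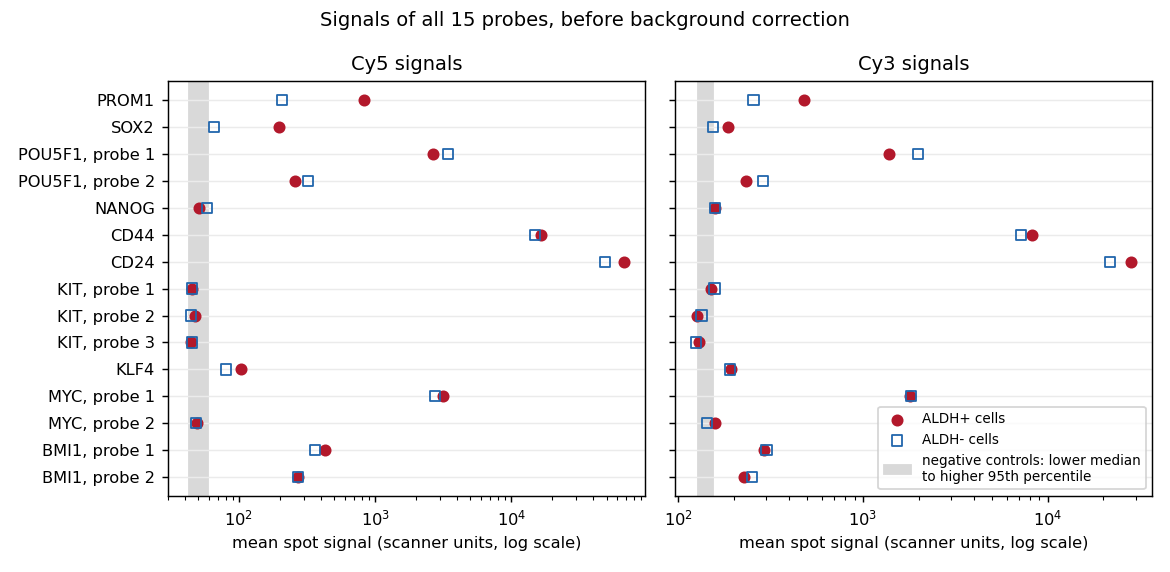
Mean spot signals before background correction of the 15 probes of the 10 markers, in scanner units on a log axis, in Cy5 (left) and Cy3 (right). Filled circles are ALDH+ cells, open squares are ALDH- cells, and the grey band runs from the lower median to the higher 95th percentile of the negative control spots of the arrays in that dye. PROM1 is brighter in ALDH+ cells in both dyes, both POU5F1 probes are brighter in ALDH- cells in both dyes, and NANOG and KIT lie in or next to the band.

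SOX2, a factor with an HMG box that binds DNA beside POU5F1, had the second highest ratio. Its signal was 196 in ALDH+ cells against 65.6 in ALDH- cells in Cy5, and 185 against 155 in Cy3. ALDH+ cells were again brighter with either dye, but the probe was dim: in ALDH- cells it was well above background on 1 of the arrays, and its Cy3 signal of 154.8 there was level with the 95th percentile of the negative control spots, 154.7. The log2 ratio was 0.80 and 0.70 on the arrays, a mean of 0.75 ± 0.073 (SD, 2 arrays), or 1.68-fold. SOX2 was 83rd from the highest of all genes measured, a rank that rests on this dim signal in ALDH- cells. Its size depended on the background correction more than that of any other marker. With a smaller normexp offset of 10 it was 1.14, past 2-fold, and in the log ratio of the array software it was 2.55, or 5.84-fold. The software's ratio on the single arrays was 2.96 and 2.13, and SOX2 was then 6th from the highest, ahead of PROM1, which was 16th at 4.11-fold. Under the stricter rule that all 4 channels must be above background, SOX2 was not among the genes measured.

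Of 18 other SOX genes, 4 were measured, and their mean log2 ratios lay between -0.25 for SOX3 and 0.32 for SOX4, a factor expressed in many progenitor cells and tumors. None of the 4 was past 2-fold, and their median was 0.0073.

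POU5F1, the octamer-binding factor at the centre of the pluripotency network, had the lowest ratio of the measured markers. The signal of its brighter probe was 2679 in ALDH+ cells against 3448 in ALDH- cells in Cy5, and 1388 against 1985 in Cy3. ALDH+ cells were dimmer with either dye. Its log2 ratio was -0.64 and -0.57 on the arrays, a mean of -0.60 ± 0.050 (SD, 2 arrays), which is 0.659 times the level in ALDH- cells. The dimmer probe had signals of 259 in ALDH+ cells against 320 in ALDH- cells in Cy5, and 234 against 287 in Cy3. Its ratio had the same direction and a smaller size, with -0.29 and -0.39 on the arrays and a mean of -0.34 ± 0.071 (SD, 2 arrays). POU5F1 was 575th from the lowest of the 13720 genes, and 630 genes (4.59%) were lower by more than 1.5-fold, so ratios of this size were not rare. When each array was only centred on its median, the mean was -0.44, but the arrays then had opposite signs, 0.26 and -1.14. That setting left the median of all genes measured at 0.56 on one array and at -0.43 on the other.

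NANOG, the homeobox factor of the same network, was not measured. Its signal was 51.0 in ALDH+ cells and 58.5 in ALDH- cells in Cy5, and 159.1 and 158.9 in Cy3. Its probe was above the 95th percentile of the negative control spots in 3 of the 4 channels, but by the array software's call it was well above background in neither population on either array, so no ratio is given. The 2 populations had nearly equal signals in Cy3.

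Other genes of the pluripotent state were mostly not measured either. Of 20 such partners, 3 were measured. DNMT3B, which sets new DNA methylation, was at -0.64 and -0.55 on the arrays, with a mean log2 ratio of -0.60, and UTF1, a chromatin-bound factor of undifferentiated cells, was near 0 (0.11 and -0.12). The third was TERT, the catalytic subunit of telomerase, which was named after its values were seen, at -0.32. Of 15 other POU genes, 14 were on the array and 5 were measured, with 0 past 2-fold and POU2F1 the lowest at -0.23.

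**Figure D2:**
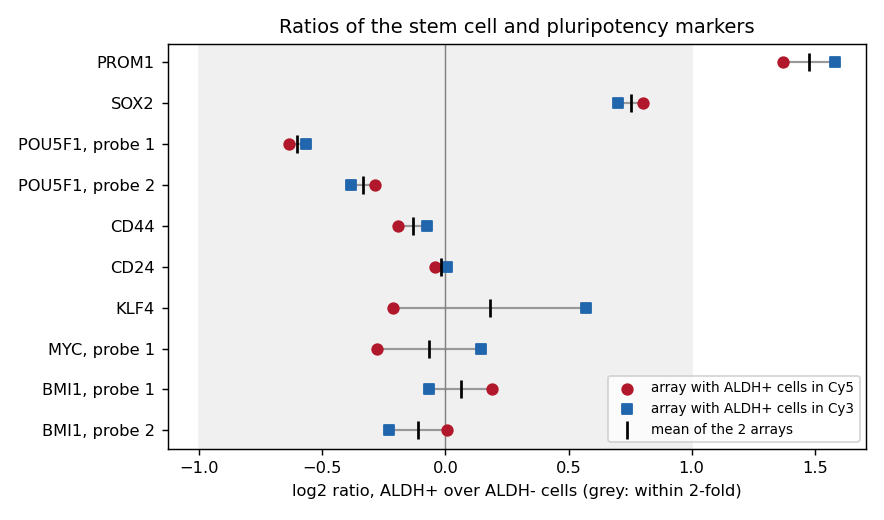
Log2 ratios of ALDH+ over ALDH- cells for the 10 measured probes of 8 markers. Red circles are the Cy5 array, blue squares the Cy3 array (named by the dye of ALDH+ RNA), black bars their mean, and the grey area is within 2-fold. PROM1 lies outside it on both arrays (1.37 and 1.58), and the arrays lie farthest apart for KLF4 (-0.21 and 0.57).

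KLF4, a zinc finger factor of the reprogramming cocktail, could not be given a direction. Its signal was 103 in ALDH+ cells against 80.0 in ALDH- cells in Cy5, and 194 against 191 in Cy3. ALDH+ cells were brighter with either dye before normalization, by little in Cy3. The log2 ratio, however, was -0.21 on the Cy5 array and 0.57 on the Cy3 array, a mean of 0.18 with an SD of 0.552. That SD was larger than that of 99.0% of all genes measured, whose median SD was 0.111. The KLF4 signals in Cy3 were 1.41 and 1.53 times the median of the negative control spots of their array. In the software's log ratio the arrays were -0.22 and 1.13.

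Of 16 other KLF genes, 12 were measured and 0 were past 2-fold. KLF17 was the lowest at -0.90 (-0.90 and -0.91 on the arrays), and KLF7 the highest at 0.08. The median of the family was -0.05, and it was 0.03 when the arrays were centred on their medians.

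MYC, the factor that drives growth and ribosome production, also had opposite signs on the arrays. Its signal was 3172 in ALDH+ cells against 2767 in ALDH- cells in Cy5, and 1801 against 1822 in Cy3. Its main probe is printed on 10 spots of each array. On the Cy5 array the 10 spots had log2 ratios from -0.31 to -0.23 (SD 0.028), and on the Cy3 array from 0.093 to 0.24 (SD 0.048). The spots of one array thus lay close together and did not overlap those of the other, so the gap between the arrays exceeded the spread between the spots. The mean was -0.066 ± 0.300 (SD, 2 arrays), or 0.955 times the level in ALDH- cells. A second probe, for a longer transcript with its own start site, was not measured.

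The partners and targets of MYC included 1 gene past 2-fold, while 0.918% of all genes measured were past it in either direction. Of 13 genes that encode its binding partners, antagonists and relatives, 12 were measured. MLXIPL, a glucose-responsive factor that pairs with MLX, lay at 0.407 times its level in ALDH- cells, and its log2 ratio was -1.21 on the Cy5 array and -1.38 on the Cy3 array. MYCL, which was named after its values were seen, had a mean of -0.87. The median of these 12 genes was -0.20. Of 22 genes that MYC is known to activate, 21 were measured, 15 of them with a ratio below 0, from NOP56, a nucleolar protein, at -0.47 to the cell cycle kinase CDK4 at 0.30. Their median was -0.10, against -0.0023 for all genes measured, which split nearly evenly around 0. The median of the targets turned to 0.20 when the arrays were only centred on their medians.

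CD44, the receptor for hyaluronan, and CD24, a small mucin-like protein of the cell surface, were bright in both populations. The signal of CD44 was 16575 in ALDH+ cells against 14947 in ALDH- cells in Cy5, and 8209 against 7180 in Cy3. CD24 gave 66854 against 49005 in Cy5, and 28139 against 21731 in Cy3. Both were somewhat brighter in ALDH+ cells before normalization. After loess, which centres genes of like brightness on 0, the log2 ratio of CD44 was -0.19 and -0.074 on the arrays, a mean of -0.13 ± 0.085 (SD, 2 arrays), and that of CD24 was -0.043 and 0.0057, a mean of -0.018 ± 0.034 (SD, 2 arrays). With median centring in place of loess their means were 0.18 and 0.42, and the arrays then had opposite signs for both (0.99 and -0.63 for CD44, 1.39 and -0.55 for CD24), so their direction rested on the normalization. Neither probe was saturated.

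Of 15 ligands and partners of CD44 and CD24, 8 were measured and 0 were past 2-fold. SPP1 (osteopontin), a secreted ligand of CD44, was the lowest at -0.60 (-0.59 and -0.61 on the arrays), and HMMR, another receptor for hyaluronan, the highest at 0.59 (0.68 and 0.50). Their median was -0.16, and 0.14 with median centring.

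KIT, the receptor tyrosine kinase for stem cell factor, was not measured with any of its 3 probes. The probe spotted 10 times had signals of 47.6 in ALDH+ cells and 44.3 in ALDH- cells in Cy5, and of 125.7 and 133.6 in Cy3, with 0 of 4 channels above the 95th percentile of the negative control spots. A second probe was above it in 2 of 4 channels and the third in 0. Its ligand KITLG was measured, at 1.00 on the Cy5 array and 0.71 on the Cy3 array, a mean of 0.85, or 1.81-fold higher in ALDH+ cells. It was past 2-fold in the software's log ratio (1.70) and with an offset of 10 (1.08). KITLG was the highest of 10 measured genes of 13 that act with KIT, and PTPN11, the phosphatase SHP2, was the lowest at -0.60. The median of the 10 was -0.08.

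Surface markers of stem cells and efflux pumps other than the 10 markers held 1 gene past 2-fold. The share of all genes measured past 2-fold was 0.918% in either direction. Of 20, 9 were measured. NT5E (CD73), an enzyme that makes adenosine outside the cell, had a mean log2 ratio of 1.06, or 2.08-fold higher in ALDH+ cells (1.02 and 1.096 on the single arrays). Without background correction it was 0.92, under 2-fold. CD9, a tetraspanin, lay at 0.72, and ITGB1, the integrin beta 1 chain, at -0.80, and both were named after their values were seen. The median of the 9 genes was 0.26, against -0.0023 for all genes measured, and 7 of the 9 were above 0. On the single arrays their median was 0.18 and 0.19.

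BMI1 did not differ beyond the arrays' spread. The signal of its brighter probe was 426 in ALDH+ cells against 363 in ALDH- cells in Cy5, and 290.1 against 301 in Cy3. The log2 ratio was 0.19 on the Cy5 array and -0.067 on the Cy3 array, a mean of 0.062 ± 0.182 (SD, 2 arrays), or 1.04-fold. The second probe gave 0.0074 and -0.23, a mean of -0.11. Of 27 other genes of the Polycomb complexes and targets of BMI1, 24 were measured and 0 were past 2-fold. CBX6, a reader of the Polycomb mark, was the lowest at -0.77, and RNF2, the ubiquitin ligase that BMI1 assists, the highest at 0.27. Their median was -0.04, and 0.03 with median centring.

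**Figure D3:**
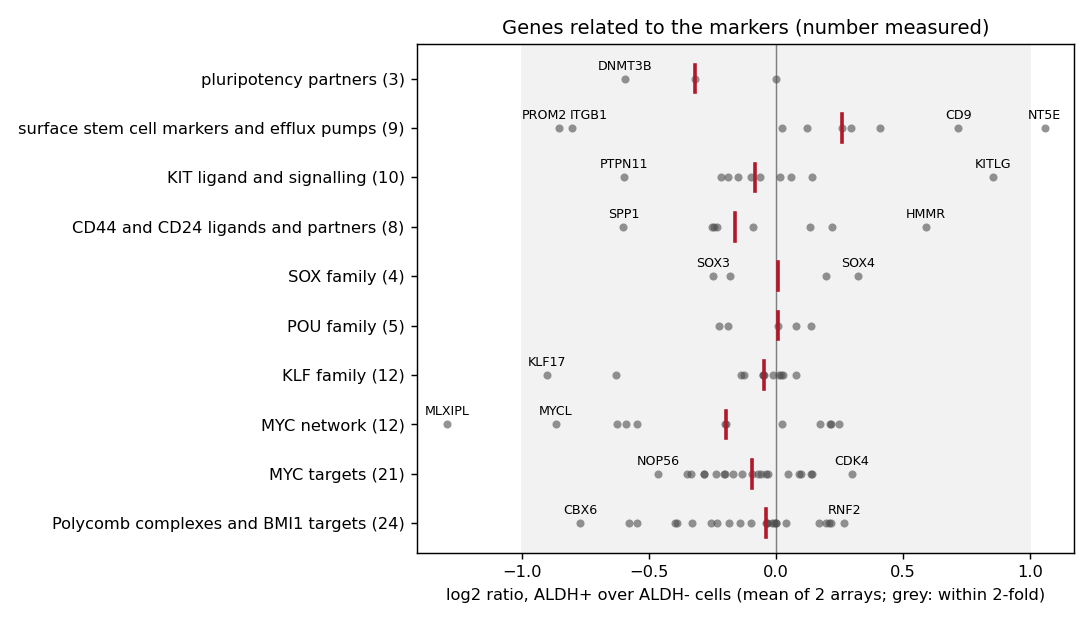
Mean log2 ratios of ALDH+ over ALDH- cells of the genes measured in 10 lists of genes related to the markers, with 1 grey point for each gene, the median of each list as a red bar and the number measured in parentheses. The shaded area is within 2-fold; NT5E (1.06) lies to its right and MLXIPL (-1.30) to its left.

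The medians of the related lists ran from -0.32 for the pluripotency partners to 0.26 for the surface markers. Of the 20 pluripotency partners only 3 were measured, and UTF1 among them lay at -0.0024, level with the median of all genes. On the single arrays the median of the surface markers was 0.18 and 0.19, and the median of all genes measured was -0.0023 on the mean of the arrays. Over the 10 lists together, 108 of 179 genes were measured, 1 was more than 2-fold higher and 1 more than 2-fold lower, and the median was -0.06. Among all genes measured, 0.211% were more than 2-fold higher and 0.707% more than 2-fold lower. Within the markers, the order of the means was PROM1, SOX2, KLF4, BMI1, CD24, MYC, CD44 and POU5F1. On both arrays PROM1 lay above SOX2, SOX2 above the other 6, and POU5F1 below the other 7. The place of SOX2 rests on a signal in ALDH- cells that was well above background on 1 array, and it entered the genes measured through ALDH+ cells. From KLF4 to CD44, the array values of each gene overlapped those of its neighbor in the order, so neighbors did not differ beyond their technical spread. CD44, which is next to MYC in the order, did not overlap CD24 or BMI1 and lay below CD24 on both arrays.

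**Figure D4:**
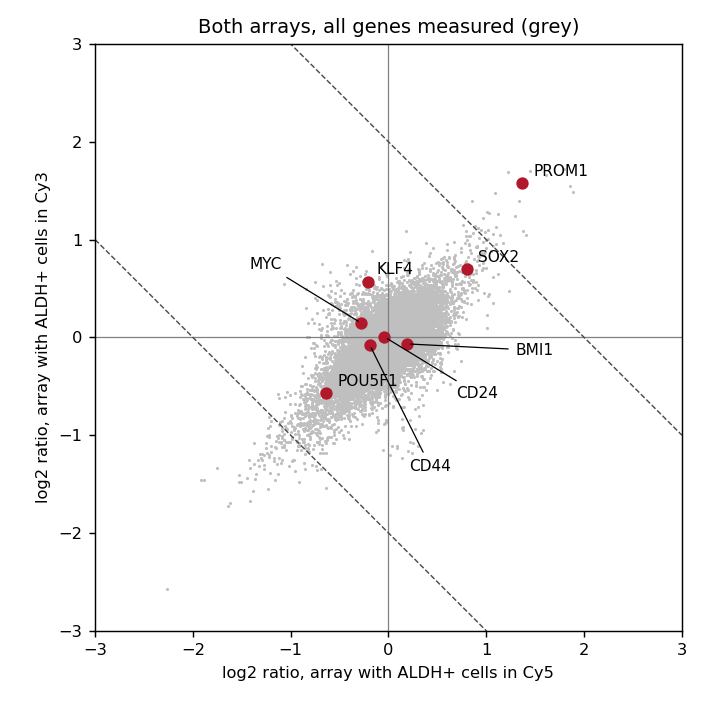
Log2 ratios of ALDH+ over ALDH- cells on the Cy5 array (horizontal) and the Cy3 array (vertical), named by the dye of the ALDH+ RNA, for 13720 genes (grey) and the 8 measured markers (red). The dashed lines mark a mean ratio of 2-fold in each direction; PROM1 lies beyond the upper one, SOX2 just inside it, and KLF4 and MYC lie at the upper left, where the arrays disagree in sign.

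The choice of processing moved the 2 markers with the highest ratios most. PROM1 was past 2-fold under each background correction and normalization tried, from 1.31 without background correction to 2.04 in the software's log ratio. Its rank among all genes was 16 in the software's ratio and between 6 and 8 in the other settings. POU5F1 kept a negative mean in each of them, between -0.60 and -0.44.

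**Figure D5:**
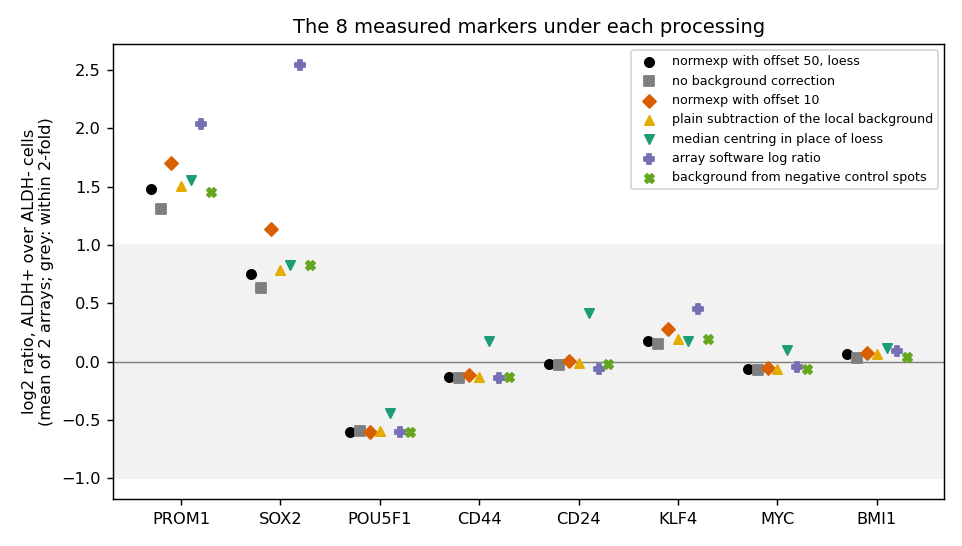
Mean log2 ratios of ALDH+ over ALDH- cells of the 8 measured markers under 7 ways of background correction and normalization, 1 symbol for each. PROM1 stays above 2-fold (the edge of the grey area), SOX2 ranges from 0.63 to 2.55, and CD44 and CD24 lie above 0 by more than 0.1 with median centring alone.

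The label of the line was checked against marker genes. Of 6 genes typical of ovarian clear cell carcinoma, 5 were measured, among them PAX8, KRT7 and NAPSA, and 0 of 3 that this tumor usually lacks (WT1, ESR1 and PGR). Markers of other cell types were measured for 3 of 8 leukocyte genes, 0 of 6 fibroblast genes and 1 of 4 endothelial genes. The share measured over all genes was 50.3%, and the mean log2 ratios of these markers lay between -0.08 and 0.45. The leukocyte genes PTPRC and CD68 and the endothelial gene CDH5 were dim, with Cy3 signals from 167 to 187. The leukocyte gene CD14 was brighter, at 232 in ALDH- and 292 in ALDH+ cells in Cy3. Of 3 ALDH enzymes tied to the assay, ALDH1A1 was not measured, ALDH1A2 had a mean of 0.20 and ALDH1A3 one of 0.61. On each array 43118 spots were gene probes, of which between 50.3% and 64.9% were well above background in one channel, and 0 were saturated. The median signal of the 153 negative control spots was about 43.1 to 45.1 in Cy5 and 127.2 to 135.2 in Cy3, while the median local background was between 36.5 and 40.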

How the data were processed

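RNA of ALDH+ and ALDH- cells was measured on 2 arrays of the same 2 extracts with the dyes exchanged, on 1 slide and in 1 scan. The authors deposited the intensity of each spot and of its local background without normalization, with the flags for spots well above background, saturated or outlying (per the file headers, Feature Extraction 10.7.3.1, while the labels name 8.5.1.1). They also deposited a log10 ratio that the software computed with a background and dye correction of its own, and a table that joins this log10 ratio of both arrays. The joined values were equal to the software's at 44372 spots (largest difference 1.66e-09 on the log2 scale), and 4 other columns of that table were not used.

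Intensities were corrected with normexp (offset 50) and normalized by loess within each array in R 4.3.3 with limma 3.58.1. Control and outlier spots were left out (531 and 519 outliers), spots of a probe were averaged, and ratios were turned to ALDH+ over ALDH- cells and averaged. The offset of 50 makes the ratios of dim probes smaller. To be well above background, a probe needed this flag on over 50% of its spots. There were 34127 probes, 16682 of them measured, and 25419 took a RefSeq symbol by accession (GRCh38.p14 table, names only). Later steps used Python 3.11.15, numpy 2.4.6 and pandas 2.3.3, and were checked on simulated data.

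No gene was past 2-fold in the direction of the dyes (0 of 13720). Named were the markers, every gene of a related list past 2-fold, and otherwise its highest and lowest measured gene. The markers and lists were chosen with earlier results of these data known. Alternatives were other background corrections, median centring, the software's ratio, the joined table, single arrays, other probe rules, filters and thresholds. An alternative chosen after seeing the data took the background from negative control spots. Precision is limited by the number of arrays, and the spread between sorts is unknown.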

Additional observations from a re-analysis of the deposited data

How the results depend on the processing

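No paired analysis was possible because both arrays hold the same 2 extracts and no result comes from a test. PROM1, SOX2, POU5F1 and KLF4 kept the sign of their mean in each alternative run that used both arrays, and CD44, CD24, MYC and BMI1 did not. Log2 ratios that moved by more than the SD between the arrays, and counts that moved by more than 1.5 times, were these. Without background correction, PROM1 was 1.31, SOX2 0.63, genes higher 19, and the medians of surface markers 0.15, KIT signalling -0.062 and the POU family 0.026. With an offset of 10, PROM1 was 1.70, SOX2 1.14, markers more than 2-fold higher 2, genes higher 65, surface markers 0.28 and POU 0.014, and CD24 turned to 0.0091. In the software's ratio and the joined table alike, PROM1 was 2.04, SOX2 2.55, CD24 -0.064, markers higher 2, genes higher 137 and lower 276, pluripotency partners -0.56, surface markers 0.31, KIT signalling -0.12, POU 0.022 and MYC targets -0.14. With median centring, SOX2 was 0.83, POU5F1 -0.44, CD44 0.18, CD24 0.42, the median of the markers 0.18, genes higher 53 and lower 45, surface markers 0.40, KIT signalling -0.024, CD44 and CD24 partners 0.14, POU 0.034, KLF 0.029, MYC network -0.060, MYC targets 0.20 and Polycomb 0.029, and MYC turned to 0.099. With background from the negative control spots, SOX2 was 0.83, surface markers 0.20, KIT signalling -0.064 and POU 0.033. With plain subtraction surface markers were 0.26. With the mean over probes POU5F1 was -0.47 and BMI1 -0.024. With probes above background in both populations, surface markers were 0.19 and KIT signalling -0.10. Without a filter, pluripotency partners were -0.047, surface markers 0.053, KIT signalling 0.016 and CD44 and CD24 partners -0.011. At 1.5-fold 2 markers were higher and 1 lower, with 207 genes higher and 630 lower. At 3-fold 0 markers were higher, with 4 genes higher and 5 lower. The cause was not tested.

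On the single arrays, the ratios ran from 1.37 to 1.58 for PROM1, 0.70 to 0.80 for SOX2, -0.64 to -0.57 for POU5F1, -0.19 to -0.074 for CD44, -0.043 to 0.0057 for CD24, -0.21 to 0.57 for KLF4, -0.28 to 0.15 for MYC and -0.067 to 0.19 for BMI1. The median of the markers ran from -0.12 to 0.076. Markers past 2-fold were 1 higher and 0 lower on either array, with 33 to 34 genes higher and 92 to 144 lower. Medians of the lists ran from 0.18 to 0.19 for surface markers, -0.11 to -0.087 for KIT signalling, -0.088 to -0.081 for POU, -0.10 to -0.039 for MYC targets and -0.100 to -0.072 for Polycomb. The medians of the gene means lay outside these ranges for surface markers (0.26), KIT signalling (-0.083), POU (0.0053) and Polycomb (-0.038). For such lists the SD between the arrays does not measure the spread of the median. Of the genes past 2-fold, 23.0% were higher, against 34.4% with an offset of 10, 33.2% in the software's ratio and 54.1% with median centring. Of 263 values of the other 22 named genes, 40 moved by more than the SD and 7 had the other sign. Signal over background limits SOX2, KLF4, NANOG and KIT most, since their probes were dim.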
